A study of Mus musculus with 12 samples.

Results

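The comparison set T cells of the unconventional kind from mouse Peyer's patches against those of the conventional kind, and asked which genes lay on one side of that divide in every array. Unconventional arrays were DN 1 to 3 and γδ 2 and 3, and conventional arrays were CD4 1 to 3 and CD8 2 and 3, which makes 5 arrays in each pool and 10 of the 12 arrays of the series. Libraries with the labels CD8 1 and γδ 1 were left out, since Cd8b1 in them contradicted those labels. A gene is called shared below when it passed the pooled test (limma, Benjamini-Hochberg adjusted p under 0.05), when the values of the 5 arrays of one pool all lay above those of the other, and when its probe was detected on all 5 arrays of the higher pool. This held for 1490 of 17058 genes tested.

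The study hybridised Cy5-labelled RNA of sorted cells, 1 sample per array, to a 3D-Gene mouse oligonucleotide chip. All fractions came from C57BL/6 mice aged 10 weeks, of both sexes, with cells of 3 to 5 animals combined before sorting and a stated purity above 98%. DN cells were positive for TCRβ and negative for CD4, CD8β and the γδ receptor. γδ cells carried the γδ receptor without TCRβ, while CD4 and CD8 cells carried TCRβ together with CD4 or CD8β. No animal was treated or carried a modified allele per the labels, the gate had no antibody to CD8α, and the labels do not say which mice went into which sample.

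Conventional αβ T cells recognise peptides on classical MHC molecules, recirculate between blood and lymphoid organs, and need costimulation through CD28 to become effectors. Unconventional T cells include γδ T cells and αβ T cells without the CD4 or CD8αβ coreceptor, many of which live in the gut wall. They are known for natural killer receptors, for adaptors with activating tyrosine motifs, and for granule proteins that are held ready before any encounter.

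The sort genes were read first. Cd4 stood at 8.76, 9.97 and 9.72 log2 signal in the CD4 arrays and at 6.00 to 6.16 in the other arrays of both pools, which overlapped through CD8. Cd8b1 stood at 6.29, 6.26 and 6.28 in DN, 8.29 and 8.14 in γδ, 8.26, 7.93 and 7.80 in CD4, and 13.80 and 13.62 in CD8. The library labelled CD8 1 had 8.57, near the γδ and CD4 arrays, and that labelled γδ 1 had 13.91, above both CD8 arrays that were kept. Cd8a, whose product the gate did not use, was at 14.42, 14.35 and 14.22 in DN, 13.83 and 13.49 in γδ, 13.85 and 13.49 in CD8, and 7.75 to 7.96 in CD4. Cd163l1, a scavenger receptor gene of some γδ T cells, was at 8.57 and 8.48 in γδ and at 6.01 to 6.18 in the other arrays. Among the CD3 chains, Cd3d and Cd3e overlapped between the pools, and Cd3g is described with the receptor genes.

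Replicates 2 and 3 of a fraction were nearly the same array. They correlated across genes at 0.997 to 0.998, against 0.966 to 0.968 for replicate 1 with the others in DN and CD4, and the chips of replicate 1 had 2736 blank spots where the others had 384. RNA collection was done 3 times per the labels, with nothing on whether the animals differed, so the p-values cover only a spread among samples that may be technical. With replicates 2 and 3 averaged to 1 sample, 24 genes passed the pooled test in place of 2406, and 23 of them were shared. Replicates 2 and 3 alone gave 6050 calls, and replicate 1 leaves 1 array in each of DN and CD4, with no test. Median spot signals were 67.7 to 72.1 intensity units against blank means of 58.6 to 62.2, and the number of arrays limits the precision.

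Across the divide, 2406 genes passed the pooled test, 14.1% of those tested. This fit had no block, and a fit blocked on the series of chips called 5097 genes. Of the 2406 genes of the fit without a block, 1135 were higher in the unconventional pool (6.65%) and 1271 were higher in the conventional pool (7.45%). Without regard to the test, 1854 genes had pools that did not overlap (10.9%), 351 of which were not called. The shared genes were 785 higher in unconventional cells (4.6%) and 705 higher in conventional cells (4.13%). Both fractions of one pool differed from both of the other by their own tests in 540 genes, all of them among the shared, with 350 higher in unconventional (2.05%) and 190 higher in conventional cells (1.11%). On the deposited value table this last set had 381 genes, of which 76.1% were higher in unconventional cells, against 64.8% of the 540. Single libraries moved these counts: the pooled calls fell to 1502, 1450 and 1524 without γδ 2, γδ 3 and CD8 3, and the shared genes rose to 2300 without CD4 1. The 540 became 815 without DN 1, 264 and 251 without γδ 2 and γδ 3, and 306 and 286 without CD8 2 and CD8 3.

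The unconventional side held the larger differences. Among its 785 genes the median log2 difference was 0.48, with 207 above 1 and 65 above 2, while the 705 conventional genes had a median of -0.37, with 81 beyond 1 and 14 beyond 2. The gap, the distance from the lowest value of the higher pool to the highest value of the lower pool, exceeded 1 in 94 unconventional and 21 conventional genes. At the edge of the definition, Clca3b and Krt6a were the genes with the smallest positive gap on the unconventional and the conventional side, and Il15 and Ciao2b were the called genes just outside it. Clca3b spanned 6.39 to 6.49 in unconventional and 6.28 to 6.39 in conventional arrays, and Il15 spanned 5.82 to 6.00 against 5.76 to 5.82. Krt6a spanned 5.85 to 5.95 against 5.95 to 6.12, and Ciao2b spanned 9.77 to 10.31 against 10.31 to 10.40.

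**Figure D1:**
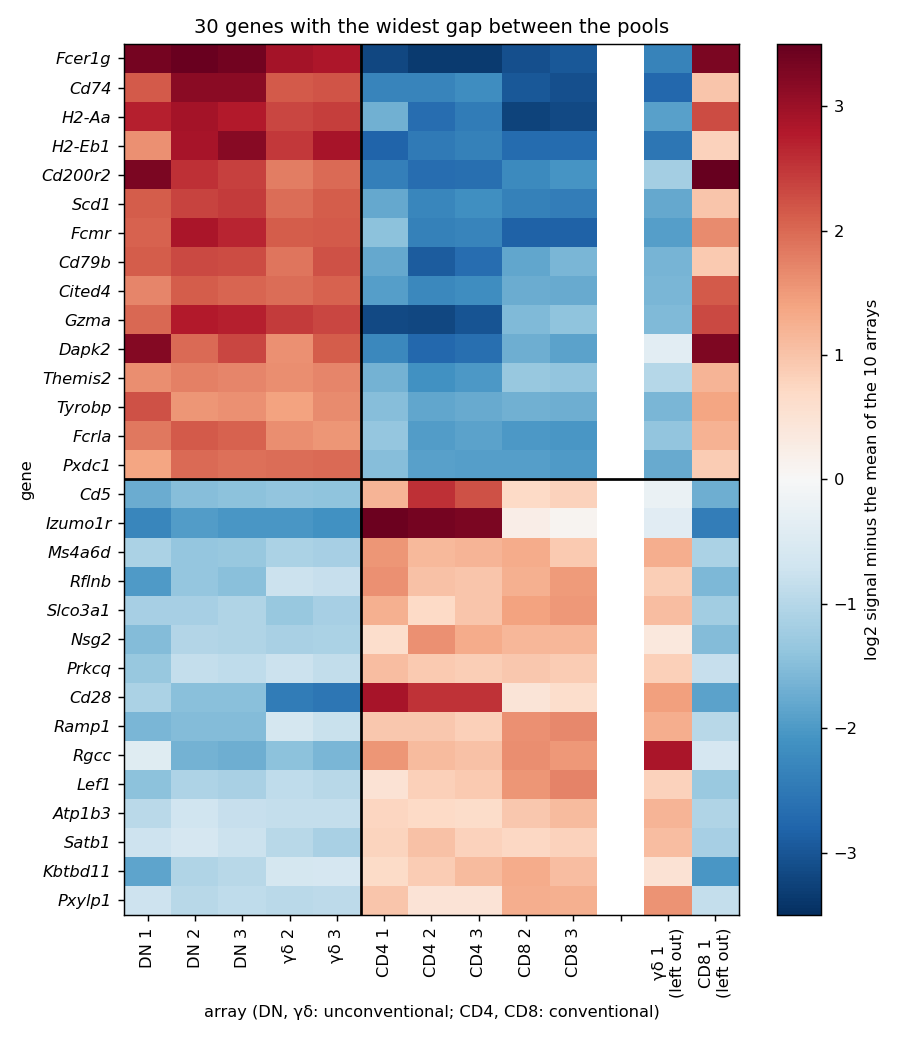
Log2 signal minus the mean of the 10 arrays (colour) for the 15 genes of each side with the widest gap (vertical axis), by array (horizontal axis), with the 2 left-out libraries apart at the right. The genes above the line are high in all 5 unconventional arrays and those below it in all 5 conventional arrays, while the library labelled CD8 1 resembles the first pool and that labelled γδ 1 the second.

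Marker lists of other cell types were read beside the results, since the pools could differ in them. Of 18 B cell markers tested, 13 were higher in the unconventional pool, all of them shared, and none was lower, with a median difference of 1.31 (3.72 on the value table). Their mean log2 signal was 8.16 to 8.79 in the unconventional arrays and 6.60 to 6.67 in the conventional arrays, and it was 7.74 in the library labelled CD8 1. Pax5, which fixes B cell identity, was 1 of the 13, with low signals of 5.94 to 6.11 against 5.79 to 5.82 and a difference of 0.21 (adjusted p = 0.00589, limma). Of 19 intestinal epithelium markers 9 were higher and none lower, with mean signals of 6.53 to 6.89 against 6.29 to 6.35 and a median difference of 0.24 (1.00 on the value table). Dendritic cell markers had 6 of 10 higher and 1 lower, and plasma cell markers had 3 of 8 higher and none lower. Of 14 macrophage, 10 granulocyte and mast cell, 14 stromal and 7 NK and innate lymphoid cell markers, 1, 1, 2 and 3 were lower and 1, Kit of the last list, was higher, and of 4 germinal centre B cell markers 1 was higher and 1 lower. Of 13 T cell markers 2 were higher and 6 lower. Cd4 and Cd8b1, whose products the gate used, were among the 6, and Cd8a was among the 2. The part of these cells in the results below was not tested, and in sorted bulk RNA fewer cells of a type and less RNA per cell cannot be told apart.

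NK receptors and their adaptors stood on the unconventional side. Of 29 tested, 16 were higher and none lower, with 14 shared and a median difference of 0.31 against -0.01 over all genes. On the value table, with undetected spots set to the lowest value of their array, these medians were 2.34 and -0.05. Fcer1g encodes the FcRγ chain, the signalling adaptor of Fc and NK receptors, and had the widest gap of all shared genes. Its log2 signal was 13.05, 13.14 and 13.06 in DN, 12.59 and 12.53 in γδ, 6.51, 6.33 and 6.33 in CD4, and 6.62 and 6.71 in CD8. The pools lay 5.82 apart at their nearest values, and the difference was 6.29 ± 0.05 (SE, 78.3-fold, adjusted p = 2.03e-09, limma). Tyrobp, which encodes the partner adaptor DAP12, was at 10.16, 9.46 and 9.53 in DN and 9.34 and 9.57 in γδ, and at 6.12 to 6.43 in the conventional arrays. Its difference was 3.35 (adjusted p = 1.02e-05, limma), with DN 1 above the other unconventional arrays.

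The promoter of Fcer1g is shown because no other shared gene with a promoter sequence here had so wide a gap. Promoters here are RefSeq windows of 300 bases on GRCm38.p6, from 250 bases before a gene's start to 50 after it, and Fcer1g's lies at chr1:171234300-171234599 on the minus strand, with capitals at a match to the Runx letters TGTGGT.
Fcer1g: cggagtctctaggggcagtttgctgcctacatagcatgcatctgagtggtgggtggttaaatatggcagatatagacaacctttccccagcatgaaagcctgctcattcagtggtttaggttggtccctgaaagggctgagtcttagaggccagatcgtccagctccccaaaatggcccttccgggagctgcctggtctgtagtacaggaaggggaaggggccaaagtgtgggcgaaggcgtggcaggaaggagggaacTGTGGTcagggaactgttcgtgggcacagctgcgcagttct

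Receptors on the same side differed in how evenly both fractions carried them. Cd244a, the receptor 2B4, was at 9.73 to 11.67 in unconventional and 5.93 to 6.99 in conventional arrays, a difference of 3.93 (adjusted p = 0.000158, limma). Klra5 and Klra6, Ly49 receptors, were higher in DN than in γδ by 2.60 and 3.44 and still higher in γδ than in both conventional fractions. Klra6 stood at 10.66, 10.50 and 10.67 in DN, 7.07 and 7.27 in γδ, and 5.93 to 6.11 in the conventional arrays. Klre1 followed the same order, with 9.70, 10.06 and 9.90 in DN, 8.34 and 8.33 in γδ and at most 6.12 elsewhere. The probes of closely related Ly49 genes may cross-hybridise, so single members are uncertain.

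Klrd1, which encodes CD94, split the conventional pool. It was at 13.20 to 13.68 in all unconventional arrays, 11.42 and 11.53 in CD8, and 7.31 to 7.52 in CD4. The CD4 minus CD8 difference of -4.04 was as large as the pooled difference of 3.93, and the pools still did not overlap. Klri2 was detected on 5 unconventional and 0 conventional arrays, at least 2.35-fold higher. Klrb1c and Ncr1, which mark NK cells, differed by 0.15 and 0.06 and overlapped (adjusted p = 0.445 and 0.156, limma).

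Genes of cytotoxic granules moved with the receptors. Of 19 tested, 12 were higher and 1, Stx11, was lower in the unconventional pool, with 8 shared and a median of 0.57 (1.33 on the value table). Gzma, a tryptase of cytotoxic granules, was at 12.65, 13.42 and 13.38 in DN, 13.11 and 12.99 in γδ, 7.49, 7.45 and 7.63 in CD4, and 9.11 and 9.24 in CD8. The difference was 4.75 ± 0.15 (SE, adjusted p = 2.09e-06, limma), with no overlap and CD8 above CD4. Gzmb, the granzyme that cleaves caspases, was at 14.02 to 14.75 in unconventional arrays, 11.12 and 11.20 in CD8 and 9.48 to 9.69 in CD4, a difference of 4.10. Gzmc was dimmer, with 6.82 to 7.02 against 5.78 to 5.90, and Cst7, an inhibitor of granule cathepsins, was higher by 1.31. Prf1, the pore-forming perforin, differed by 0.12 and overlapped (adjusted p = 0.522, limma).

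**Figure D2:**
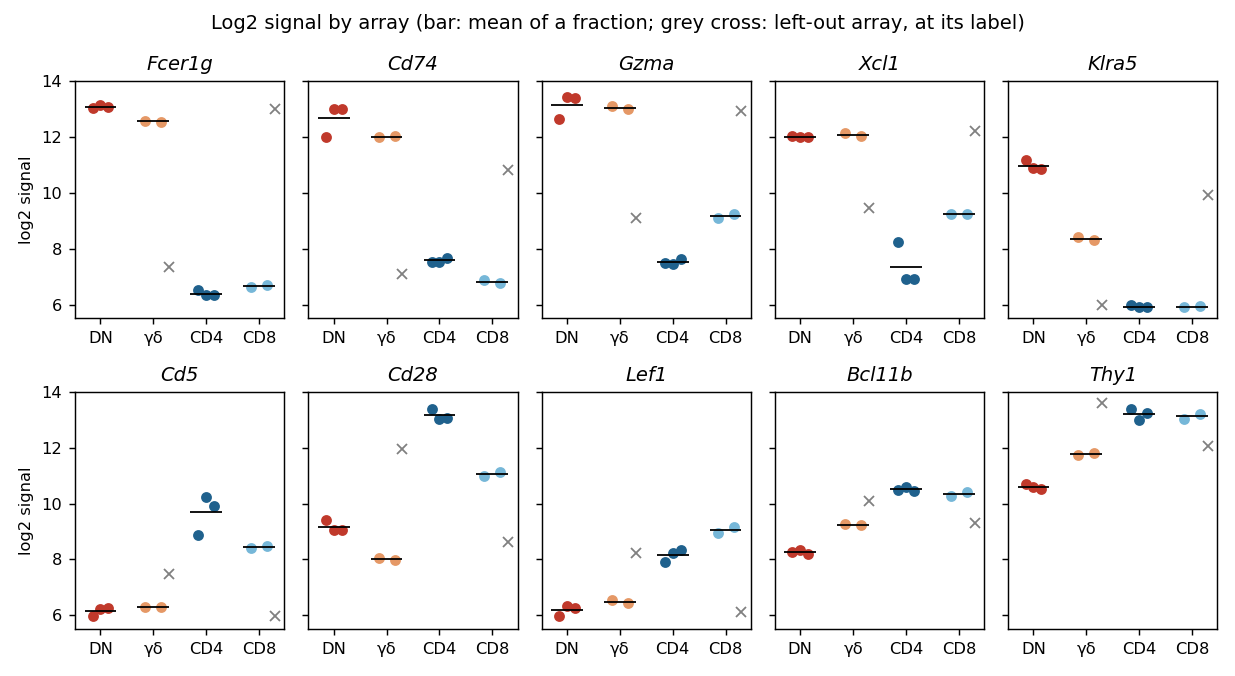
Log2 signal (vertical axis) of 10 genes by fraction (horizontal axis), 1 point per array in the fit, with a bar at each fraction's mean and a grey cross for each left-out library at its label. The points of DN and γδ lie on one side of all CD4 and CD8 points in each panel, by 5.82 for Fcer1g and by 1.00 for Bcl11b.

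Secreted ligands lay on both sides. Of 26 tested, 6 were higher and 7 lower in the unconventional pool, 6 and 1 of them shared. The 6 were Xcl1, Ccl5, Ccl4 and Ccl3, which are chemokines, Csf2, which encodes GM-CSF, and Tgfb3. Xcl1, which draws cross-presenting dendritic cells, was at 11.98 to 12.14 in the unconventional arrays, 9.23 and 9.26 in CD8, and 8.23, 6.90 and 6.90 in CD4. Ccl5 was at 15.57 to 15.67 in the unconventional pool against 11.24 to 12.96, and its spot in DN 1 was saturated, so that 3.48 may understate the difference. Ccl4 and Ccl3 were higher by 2.56 and 1.59 and lay lowest in CD4. The shared ligand on the conventional side was Tnfsf8, which encodes CD30 ligand, with -1.03. The other 6 lower members were Il4 (-1.66), Tnfsf11 (-1.53), Il21 (-0.93), Il10 (-0.23), Cd40lg (-0.20) and the chemokine gene Ccl20 (-0.16).

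Integrins and other genes of tissue residence had 5 of 19 members higher and 1 lower, all 6 shared. Itgae, the CD103 chain that binds E-cadherin on epithelium, was at 10.76 to 11.56 in the unconventional arrays with a median of 11.18, 9.49 and 9.48 in CD8, and 7.40 to 7.51 in CD4. The difference was 2.70, and a second Itgae probe also separated the pools, by a difference of 0.54. Itgax, the CD11c chain, was at 8.16 to 8.64 against 5.86 to 6.07, and Itga1, a collagen receptor chain, at 7.26 to 7.78 against 6.19 to 6.47. A second Itga1 probe gave 0.03 and overlapped. Litaf, an endosomal protein gene of the same list, was higher by 3.07, and Sema4a was lower by the measure of -1.40. Itgax is also 1 of the 6 dendritic cell markers, of 10 tested, that were higher, while Ccr7 of that list was lower (-1.40). Which cells the Itgax signal came from was not tested.

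Inhibitory receptors had 4 of 14 higher, all shared, and 1 lower. Cd200r1, an inhibitory receptor for CD200, was at 7.57 to 8.16 against 5.98 to 6.96, a difference of 1.49. Its relative Cd200r2, outside the list, was at 10.39 to 11.90 in the unconventional arrays, lower in γδ than in DN, and at 5.95 to 6.54 in the conventional arrays, a difference of 4.67 (adjusted p = 4.54e-06, limma). Entpd1, the ectoenzyme CD39, differed by 0.51 close to the floor, and by 3.30 on the value table, where the offset does not narrow dim genes. There an undetected spot took the lowest value of its array, and Entpd1 was detected on 4 of the 5 conventional arrays. Havcr2 and Lilrb4a differed by 0.24 and 0.20.

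Among transcription factors of effector and innate-like cells, 5 of 19 were higher, all shared, and 1 was lower. Irf8 was at 9.44 to 10.33 against 6.50 to 6.98, a difference of 3.08, in arrays where B cell markers, whose cells also use Irf8, were high as well. Ahr, the aryl hydrocarbon receptor that maintains gut intraepithelial lymphocytes, was at 8.13 to 8.79 in unconventional arrays, 7.39 to 7.76 in CD4, and 6.43 and 6.35 in CD8. The pooled difference was 1.41, and against CD4 alone γδ missed the threshold (0.84, adjusted p = 0.0503, limma). Id2, a partner-blocking regulator of innate-like lymphocytes, was higher by 1.01, and Hic1 and Batf3 by 1.42 and 0.49. Tbx21 and Runx3, factors of the cytotoxic programme, had differences of -0.47 and -0.06 and overlapped.

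The conventional side held genes of T cell identity. Of 22 transcription factors of conventional T cells, 7 were lower in the unconventional pool, 6 of them shared, and 1, Ikzf3, was higher. Lef1, an effector of Wnt signalling in naive T cells, was at 5.97, 6.35 and 6.27 in DN, 6.54 and 6.44 in γδ, 7.92, 8.24 and 8.33 in CD4, and 8.97 and 9.16 in CD8. The difference was -2.27 ± 0.11 (SE, adjusted p = 1.31e-05, limma), without overlap and with CD8 above CD4. Bcl11b, which guards T cell commitment, was at 8.28, 8.35 and 8.20 in DN, 9.27 and 9.23 in γδ, and 10.26 to 10.58 in the conventional arrays. Satb1, a chromatin organiser of thymocytes, was at 8.82 to 9.37 against 10.68 to 10.99, and Bcl11b and Satb1 differed by -1.66 and -1.69. Myb, Ascl2 and Ikzf1 were the other shared members.

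Surface molecules that tune the T cell receptor had 9 of 21 members lower and 2 higher, with 7 and 2 shared and a median of -0.63 (-1.02 on the value table). Cd5, a brake on receptor signalling, had the widest gap on the conventional side. It was at 5.97, 6.21 and 6.25 in DN, 6.31 and 6.29 in γδ, 8.88, 10.24 and 9.93 in CD4, and 8.40 and 8.50 in CD8. The unconventional arrays were near the floor and the nearest conventional array lay 2.09 above them, with a difference of -2.84 ± 0.25 (SE, 7.18-fold, adjusted p = 0.000342, limma). Cd28, the main costimulatory receptor, was at 9.40, 9.06 and 9.06 in DN, 8.06 and 7.99 in γδ, 13.39, 13.04 and 13.05 in CD4, and 10.98 and 11.12 in CD8. Each fraction held its own level of Cd28, in the order CD4, CD8, DN and γδ, and the pooled difference was -3.51. Thy1, the pan-T antigen, was at 10.53 to 10.70 in DN, 11.73 and 11.82 in γδ and up to 13.37 in the conventional arrays with a median of 13.21. Cd2, Cd27 and Icos were lower by the measures of -1.93, -1.15 and -1.40.

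The members that went the other way were Cd7 and Cd96. Cd7, a receptor of T and NK cells, was at 11.50, 13.66 and 13.62 in DN, 13.25 and 13.13 in γδ, 6.40, 7.80 and 7.87 in CD4, and 10.39 and 10.31 in CD8. Its difference was 4.20 (adjusted p = 0.0016, limma), with CD8 between CD4 and the unconventional arrays. Cd96, which binds the poliovirus receptor, was higher by 1.28.

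Of 31 genes of T cell receptor signalling, 8 were lower in the unconventional pool, all shared, and 4 were higher, 2 of them shared. Prkcq, the kinase PKCθ of the T cell synapse, was at 8.13 to 8.72 against 10.32 to 10.55, a difference of -1.85 ± 0.10 (SE, adjusted p = 3.52e-05, limma), and -0.28 without overlap by a second probe. Sh2d1a, the SLAM-associated adaptor SAP, was at up to 8.71 in unconventional arrays with a median of 8.30, 9.56 and 9.38 in CD8, and 11.41 to 12.17 in CD4. Cd247, the CD3ζ chain, was at 6.79 to 7.13 against 7.42 to 8.07, while Fcer1g, a chain that can stand in for it, was high where Cd247 was low. Cd3g was at 10.71, 11.39 and 11.23 in DN, 11.65 and 11.49 in γδ and 9.40 to 10.56 in the conventional arrays. Its difference of 1.09 passed the threshold (adjusted p = 0.0287, limma), and lost it when any one of DN 2, DN 3, γδ 2, γδ 3, CD8 2 or CD8 3 was left out. Zap70 differed by 0.10 and overlapped.

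Izumo1r, a folate receptor relative that marks regulatory and follicular helper cells, was the conventional gene with the next widest gap. It was at 7.81, 8.13 and 8.06 in DN, 8.06 and 7.96 in γδ, 13.53, 13.44 and 13.39 in CD4, and 10.33 and 10.19 in CD8. All unconventional arrays lay below CD8, and CD8 lay 3.20 below CD4. The next genes by gap were Ms4a6d (-2.41), Rflnb, an actin-binding refilin gene (-2.47), the transporter gene Slco3a1 (-2.40) and the neuronal vesicle gene Nsg2 (-2.34), followed by Prkcq, Cd28 and the neuropeptide receptor subunit gene Ramp1 (-2.40), whose second probe gave -0.28 and overlapped. The promoter of Izumo1r, at chr9:14903718-14904017 on the minus strand, is shown as the counterpart on the conventional side, with capitals at a match to the Runx letters on the reverse strand.
Izumo1r: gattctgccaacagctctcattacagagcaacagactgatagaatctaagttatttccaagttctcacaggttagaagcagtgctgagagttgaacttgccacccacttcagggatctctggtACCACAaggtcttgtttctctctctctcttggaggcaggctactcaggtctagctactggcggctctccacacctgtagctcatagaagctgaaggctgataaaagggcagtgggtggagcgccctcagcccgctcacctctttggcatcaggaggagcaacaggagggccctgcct

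Genes of follicular helper cells followed CD4 more than the divide. Of 17 tested, 9 were lower in the unconventional pool and none higher, but only 4 were shared (Izumo1r, Sh2d1a, Icos and Ascl2). The median of the list was -1.45 for DN minus CD4 and 0.03 for DN minus CD8. Of 16 genes of regulatory T cells, 7 were lower, 1 was higher, and 2 were shared, Izumo1r and the receptor gene Gpr83. By the deposited values 3 were lower and 2 higher. Gpr83 was at 5.82 to 6.03 in unconventional arrays, 6.39 and 6.43 in CD8, and 7.48 to 7.75 in CD4.

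Receptors for recirculation and cytokines split. Of 20 recirculation and chemokine receptor genes, 3 were higher and 3 lower, all 6 shared. Ccr7, which brings T cells into lymph nodes, was at 6.01 to 6.29 in unconventional arrays, 6.55, 7.78 and 7.67 in CD4, and 7.73 and 7.76 in CD8. Its difference was -1.40 (adjusted p = 0.00777, limma), with CD4 1 only 0.26 above the other pool. Il7r, the survival receptor for interleukin-7, was at 6.31 to 7.02 against 7.54 to 8.51, and S1pr1, the egress receptor, differed by -0.84. Ccr6, a receptor for the chemokine of the follicle-associated epithelium, was at 10.22 to 10.93 in unconventional arrays, 9.73 to 9.79 in CD4, and 6.29 and 6.30 in CD8. Ccr6 is shared by its order, while its difference of 2.58 came mostly from CD8, with γδ minus CD4 at 0.77 (adjusted p = 0.0543, limma).

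Of 27 cytokine receptor genes, 5 were higher and 7 lower, with 3 and 5 shared. Il2rb, the chain that binds interleukin-2 and interleukin-15, was at 8.96, 9.98 and 9.95 in DN, 9.04 and 8.98 in γδ and 7.27 to 8.22 in the conventional arrays. Its difference of 1.38 (adjusted p = 0.0141, limma) lost the threshold without γδ 2, γδ 3 or CD8 3. Il12rb1 was higher by 1.33. Il27ra was at 8.08 to 8.21 against 9.08 to 9.38, and Il6st, the shared chain gp130, at 8.33 to 8.55 against 9.19 to 9.83.

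MHC class II genes were high in both unconventional fractions. Of 14 tested, 9 were higher and none lower, with 8 shared and a median of 1.66. Cd74, the invariant chain, was at 11.99 to 13.01 in the unconventional arrays, with DN 2 and DN 3 highest, 7.54, 7.53 and 7.68 in CD4, and 6.88 and 6.77 in CD8. H2-Aa, the α chain of I-A, was at 14.02, 14.22 and 14.08 in DN, 13.63 and 13.72 in γδ, 9.63, 8.64 and 8.85 in CD4, and 8.06 and 8.16 in CD8. H2-Eb1, the β chain of I-E, was at 11.70 to 13.28 against 7.29 to 7.74. The differences of Cd74, H2-Aa and H2-Eb1 were 5.14, 5.32 and 5.24, and no value of one pool came within 3.97 of the other. Ciita, the master regulator of these genes, had a difference of -0.20 and did not pass the test. T cells of mice do not usually transcribe these genes, while B cells and dendritic cells do. The B cell markers were higher in the same arrays, by a median of 1.31 (3.72 on the value table). Which cells the class II signal came from was not tested.

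Genes of B cells were among those with the widest gaps. Cd79b, a signalling chain of the B cell receptor, was at 12.61, 12.79 and 12.76 in DN, 12.35 and 12.71 in γδ and 7.56 to 8.88 in the conventional arrays. Fcmr, the Fc receptor for IgM, was at 11.34 to 12.13 against 6.44 to 7.83, and Fcrla at 9.58 to 10.19 against 6.01 to 6.69. Blnk and Ms4a1, the adaptor of the B cell receptor and CD20, were higher by 4.33 and 4.12, and both were higher in DN than in γδ by their means. Cd79a, the partner of Cd79b, was at 6.30, 7.46 and 7.40 in DN, 6.79 and 6.73 in γδ and 5.96 to 6.18 in the conventional arrays, and missed the threshold (0.80, adjusted p = 0.0592, limma). Of 51 immunoglobulin V genes, a list added after the shared genes were seen, 31 were higher and none lower, with 29 shared and mean signals of 6.13 to 6.29 against 5.90 to 5.95.

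The promoters of H2-Aa, at chr17:34287774-34288073 on the minus strand, and of H2-Eb1, at chr17:34305617-34305916 on the plus strand, are shown because the pair moved together. Capitals mark the TCF and LEF letters CTTTGA and, downstream of them, the Y box letters CTGATTGG of class II promoters, and in H2-Aa also the T-box letters TCACAC on the reverse strand.
H2-Aa: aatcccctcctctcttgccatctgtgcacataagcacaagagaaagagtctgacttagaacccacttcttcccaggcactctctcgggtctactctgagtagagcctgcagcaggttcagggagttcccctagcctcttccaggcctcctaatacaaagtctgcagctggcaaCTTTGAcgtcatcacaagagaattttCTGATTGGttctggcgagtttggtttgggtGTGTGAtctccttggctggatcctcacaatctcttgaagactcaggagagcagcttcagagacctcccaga
H2-Eb1: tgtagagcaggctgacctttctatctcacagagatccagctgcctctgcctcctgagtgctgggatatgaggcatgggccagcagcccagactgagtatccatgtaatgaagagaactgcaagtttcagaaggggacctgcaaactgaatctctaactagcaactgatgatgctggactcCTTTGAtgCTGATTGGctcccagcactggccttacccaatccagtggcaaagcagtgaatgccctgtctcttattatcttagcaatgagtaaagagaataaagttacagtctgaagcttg

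Each motif was searched on both strands as its exact letters, without mismatches, and overlapping matches of different motifs were each counted. The Y box letters, added after these promoters were seen, stood in 4.31% of all 27025 promoters, in 5.11% of the 13374 promoters of genes tested, in 5.62% of 605 promoters of shared genes higher in unconventional cells and in 3.68% of 544 of those higher in conventional cells. The Runx letters stood in 16.9% of all promoters, 13.9% of those of genes tested, 16.7% of the first shared set and 12.9% of the second. In the same order the shares were 16.2%, 14.0%, 14.4% and 13.8% for the TCF and LEF letters. The T-box letters stood in 14.4% of all promoters, 1610 of the 13374 of genes tested, and 12.6% and 12.5% of the shared sets. Of the genes called in all 4 comparisons, the Runx letters stood in 18.2% of 253 promoters on the unconventional and 9.87% of 152 on the conventional side. The same pair of shares was 15.8% and 11.2% for T-box, 13.8% and 10.5% for TCF and LEF, and 6.32% and 3.29% for the Y box. No test of these shares was run, and the promoters of Cd5 and Rflnb held none of the letters.

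Among the other genes with wide gaps on the unconventional side, Scd1, a fatty acid desaturase gene, was at 10.57 to 11.07 against 6.19 to 6.82, a difference of 4.41 ± 0.11 (SE, adjusted p = 6.22e-07, limma). Cited4, a transcriptional coactivator gene, was at 10.83 to 11.26 against 6.89 to 7.39, and Themis2, a signalling adaptor gene of B cells, at 9.94 to 10.09 against a median of 6.68. Dapk2, a calmodulin-dependent kinase gene, was at 12.19 in DN 1, 10.58 to 11.32 in the other unconventional arrays and 6.22 to 7.28 in the conventional arrays. Pxdc1 was higher by 3.73. On the conventional side, Rgcc, a cell cycle regulator gene, was at 7.55 in DN 1, 6.25 to 6.52 in the other unconventional arrays and up to 9.60 in the conventional arrays, a difference of -2.80. Atp1b3, a sodium pump subunit gene, differed by -1.69, Kbtbd11 by -1.98 and Pxylp1 by -1.85. Second probes of Cited4 and Kbtbd11 gave 0.36 and -0.02 and overlapped.

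Of 13 genes of the NADPH oxidase and of redox enzymes, 3 were higher and none lower, and Ncf1, the p47 subunit, was at 10.03 to 10.73 in unconventional arrays, 8.08 and 8.04 in CD8, and 6.42 to 6.72 in CD4. Of 15 interferon response genes, 6 were lower, 4 of them shared, and 1 was higher, with a median of -0.36 (-0.61 on the value table), and Isg15, a ubiquitin-like protein gene, was at 8.34 to 8.68 against 9.20 to 10.01. Of 17 glycolysis genes 3 were lower and none higher, among them Pdk1, a brake on pyruvate oxidation (-1.02). Of 8 Gimap genes 2 were higher (Gimap7, 1.33, and Gimap5, 0.32), and Gimap5 lost the threshold with median scaling, on the value table and without γδ 3, CD8 2 or CD8 3. Of 15 type 17 and innate γδ genes 3 were higher and 1 lower, and Blk, a kinase of B cells and of innate γδ cells, was at 7.30 to 8.61 against 5.82 to 6.03.

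Of 67 ribosomal protein genes, 20 were lower and none higher, 11 of them shared, with a median of -0.24 (-0.59 on the value table). With median scaling in place of quantile normalisation 37 were lower and the median was -0.49. Rpl31 was at 8.40 to 8.63 in unconventional and 9.28 to 9.58 in conventional arrays. Of 17 immediate early and stress genes, which sorting can induce, 2 were higher and 3 lower, and Nr4a2, an orphan nuclear receptor gene, was at 7.36 to 8.07 against 5.85 to 6.02. Of 21 cell cycle genes 1 was higher and none lower, and of 19 genes of MHC class I processing none passed the test by limma, where Psme1, Erap1 and Cd1d1 were under an unadjusted p of 0.05 and 2 members were lower with median scaling.

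**Figure D3:**
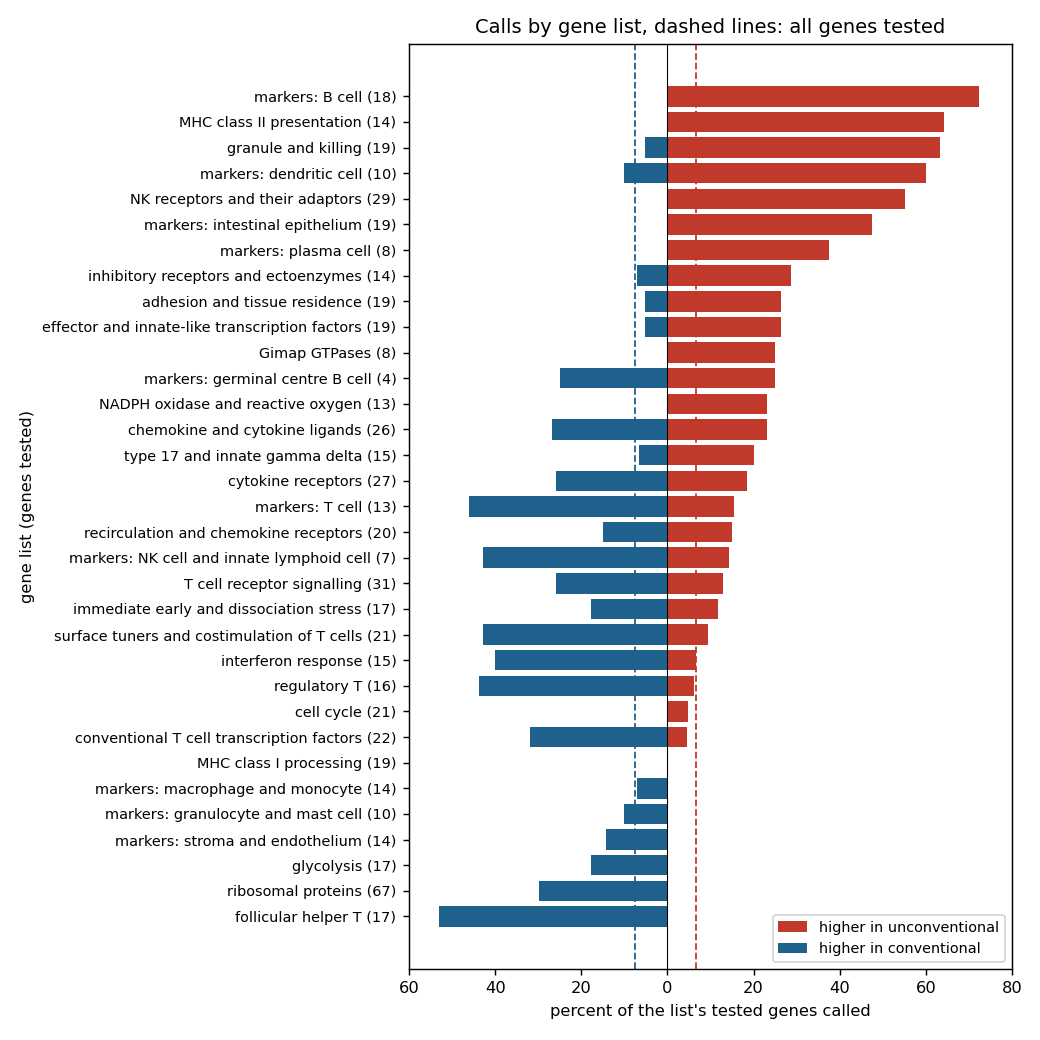
Percent of each list's tested genes (number in brackets) that were called higher in the unconventional pool (right) or in the conventional pool (left), with dashed lines at 6.65% and 7.45%, the shares of all genes tested. B cell markers reach farthest to the right, followed by MHC class II, granule, dendritic cell and NK receptor genes, and the follicular helper list reaches farthest to the left.

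Within the pools, DN and γδ differed in fewer genes than CD4 and CD8 did. DN minus γδ had 167 calls (0.979%) and CD4 minus CD8 had 917 (5.38%). Of the 785 shared genes of the unconventional side, 39 also differed between DN and γδ, a larger share than over all genes, and 29 of them were higher in DN. Of the 705 shared genes of the conventional side, 122 differed between CD4 and CD8, again a larger share than over all genes, and 59 of them were higher in CD4. Besides the Ly49 genes, Tgm2, a transglutaminase gene, was lower in DN than in γδ (-1.22), and on the conventional side the DN minus γδ difference was -1.17 for Thy1, -0.97 for Bcl11b and 1.15 for Cd28. CD4 minus CD8 was 2.66 for Igf1r, the growth factor receptor gene, and -2.61 for Tspan9, a tetraspanin gene, whose pooled difference of 2.39 was 0.68 with overlap by a second probe.

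Comparisons with no array in common were set side by side. Their differences came from separate arrays, but their calls came from 1 fit with a common variance estimate per gene. The overlap of the calls is therefore not one of independent tests. Of 17058 genes, DN minus CD4 and γδ minus CD8 had 863 and 642 higher in the unconventional fraction. Of these, 427 were in both, 49.5% of the first and 66.5% of the second. On the conventional side 307 were in both, of 940 (32.7%) and 615 (49.9%). Genes called in opposite directions numbered 11 and 29. The differences correlated across 17058 genes at 0.70, where genes are not independent replicates. The other pairing, DN minus CD8 and γδ minus CD4, had 412 (40.9% and 52.3%) and 234 (19.9% and 31.4%) in both, with a correlation of 0.44. In this pairing DN 1 and CD4 1, from the other series of chips, stand on opposite sides of the divide in separate comparisons. An effect of the series therefore cannot be told apart from a difference between the 2 pairings.

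**Figure D4:**
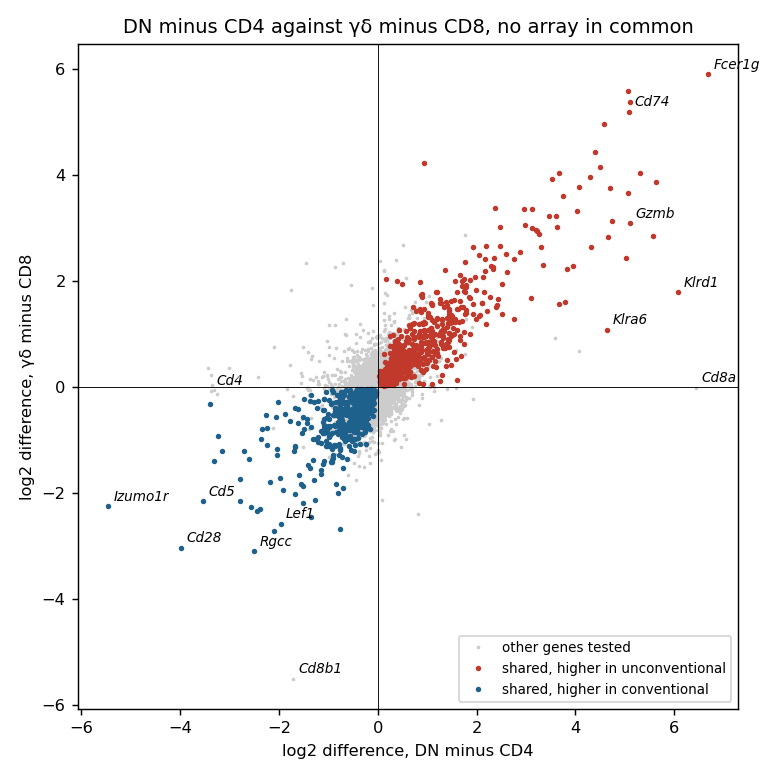
Log2 difference of DN minus CD4 (horizontal axis) against γδ minus CD8 (vertical axis), 1 point per gene, with the 785 and 705 shared genes in colour. Shared genes lie in the upper right and lower left corners, with Fcer1g at the far right and top, Klrd1 and Klra6 flatter than the diagonal, Cd4 and Cd8a near the horizontal axis, and Cd8b1 in the lower left.

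The libraries that were left out gave values the definition had not used. By the middle of the gap, the library labelled γδ 1 lay on the conventional side for 646 of 785 genes higher in unconventional cells and for 543 of 705 genes higher in conventional cells. That labelled CD8 1 lay on the unconventional side for 658 and 578 of them. Fcer1g was at 12.99 in the library labelled CD8 1 and at 7.35 in that labelled γδ 1. With all 12 arrays in the pools of their labels, 120 genes passed the pooled test and 17 were shared.

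**Figure D5:**
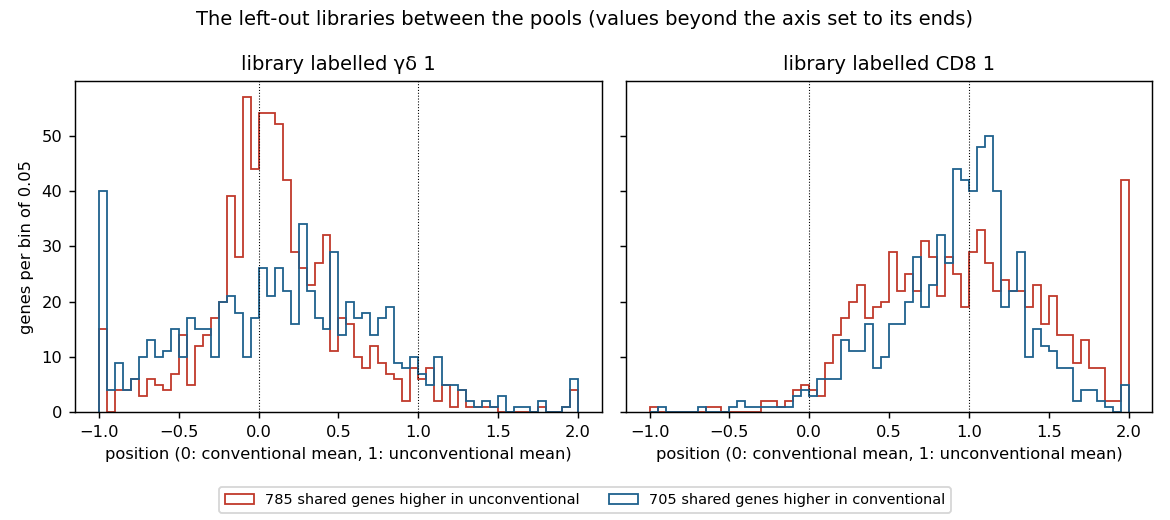
Position of the 2 left-out libraries between the pool means, where 0 is the conventional and 1 the unconventional mean (horizontal axis), as the number of shared genes per bin (vertical axis). The medians are 0.086 and 0.16 for the library labelled γδ 1, and 0.95 and 0.97 for that labelled CD8 1, for the genes higher in unconventional and in conventional cells.

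Second probes for the same genes were a further reading on the same arrays. Of 82 other probes of shared genes that were detected on all 10 arrays, 60 had the sign of the tested probe. Of the 82, 15 (18.3%) separated the pools in the direction of the tested probe. Among 880 other probes of all genes, the 82 included, 71 (8.07%) separated the pools in either direction, so the 2 shares are not alike. Second probes of Arhgef5 and Med12l separated the pools the opposite way (1.22 against -0.58, and 0.07 against -0.06).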

How the data were processed

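RNA of 12 samples was read on 12 one-colour arrays. Per the file headers, the array files deposited by the authors hold the median intensity of each spot in Cy5 scans at 3 gains, with no background correction or normalisation. The deposited value table holds the same arrays as intensity on a linear scale, a linear function of the spot medians within an array, with 0 near the blank mean and a median of 25. How the authors made it is not given in the sources used here.

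Background was corrected by normexp (offset 50) on the spot medians, and log2 values of all 12 arrays were quantile normalised, without the 25 probes marked by the scanner software. Detection means that the value table holds a value for the spot. For differences on the value table, its empty cells were set to the lowest value of their array. Of 23473 probes 20690 had 1 gene symbol and 2783 had none or several, and 134 Entrez IDs were missing from the mouse gene table. The brightest probe of a gene was tested if all arrays of some fraction detected it. lmFit of limma 3.58.1 in R 4.3.3 fitted the 4 fraction means on 10 arrays, and eBayes tested the mean of DN and γδ minus that of CD4 and CD8, two-sided, with Benjamini-Hochberg adjustment over 17058 genes. The offset narrows differences of dim genes. Folds printed as lower bounds were set against the lowest detected signal of each lower array.

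The arrays, the 33 gene lists and the rule for named genes were chosen with earlier results of these data known, so counts over lists are descriptions. The rule takes the sort genes, the 15 genes per side with the widest gap without clone names, up to 4 shared genes per list, the 4 genes per side that differed most within each pool, and those beside a gap of 0. Cd7, Cd79a, Cd96, Ciita, Csf2, Ikzf1, Ikzf3, Id2, Klrb1c, Klri2, Ncr1, Pax5, Prf1, Psme1, Erap1, Cd1d1, Runx3, S1pr1, Sema4a, Stx11, Tbx21, Tgfb3, the 7 lower ligands, Zap70, the immunoglobulin V genes and the Y box were named after a look at their values. The procedure was run on simulated data with independent noise in each array. Those data did not have the likeness of replicates 2 and 3, so they cannot give the error rates here. Same-numbered arrays of different fractions deviated together (correlation over 0.1) in 5 of 13 pairs, so the numbers were not taken as pairs. The 3 same-numbered pairs of DN and CD4 correlated at 0.613 to 0.735, but DN 2 with CD4 3 and DN 3 with CD4 2 did so at 0.623 and 0.625, along the 2 series of chips. Figures used matplotlib 3.10.9 in Python 3.11.15. Promoters came from the RefSeq table for GRCm38.p6.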

Additional observations from a re-analysis of the deposited data

Results flagged for a closer look

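In 26 of 220 sets of 5 values, from 110 named genes in both pools, 1 array stood far from the other 4 of its pool. The cut used (0.71, Dixon) marks about 1 in 20 sets of independent normal values. These sets mix fractions, nearly equal replicates and series of chips, so that rate does not hold for them. Of the 26, 20 were DN 1, 5 were CD4 1 and 1 was CD4 3, and DN 1 and CD4 1 are the arrays of the other series of chips. Values are log2 signals of the array against the range of the other 4.

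DN 1 was above the other unconventional arrays in Tyrobp (10.16 against 9.34 to 9.57), Rgcc (7.55 against 6.25 to 6.52), Pxylp1 (6.46 against 6.23 to 6.30) and P2ry10 (7.34 against 6.93 to 7.01). It was also above them in Oasl2 (6.15 against 6.08 to 6.10) and Krt8 (7.11 against 6.49 to 6.64).

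DN 1 was below the other unconventional arrays in Pxdc1 (9.52 against 10.08 to 10.14), Cd5 (5.97 against 6.21 to 6.31), Nsg2 (7.13 against 7.51 to 7.64) and Prkcq (8.13 against 8.58 to 8.72). It was also below them in Cst7 (10.09 against 10.28 to 10.35), Ccl3 (7.39 against 7.65 to 7.72), Gpr83 (5.82 against 5.98 to 6.03) and Blk (7.3 against 8.42 to 8.61). The same held for Cybb (5.93 against 6.11 to 6.17), Pgk1 (10.1 against 10.36 to 10.44), Gimap7 (8.4 against 9.20 to 9.40) and Gata1 (6.19 against 6.42 to 6.46). The remaining genes in which it was below them were Rpl23 (9.42 against 9.68 to 9.74) and Rpl5 (14.93 against 15.22 to 15.32).

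CD4 1 was above the other conventional arrays in Fcrla (6.69 against 6.01 to 6.18), Pxdc1 (6.67 against 6.16 to 6.25), Itga1 (6.47 against 6.19 to 6.22) and Ms4a1 (7.29 against 6.19 to 6.48). CD4 1 was below the other conventional arrays in Ccr7 (6.55 against 7.67 to 7.78). CD4 3 was above the others in Kit, at 5.83 against 5.77 to 5.78.

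The effect of the divide was tested for a difference between 2 comparisons without a common array (limma, adjusted over all genes). Of 17058 genes, 310 passed for DN minus CD4 against γδ minus CD8 and 952 passed for DN minus CD8 against γδ minus CD4. DN and CD4 each held 1 array of the other series of chips, and γδ and CD8 as used held none. An effect of the series thus enters the second of these comparisons, where it cannot be told apart from the fractions, and cancels in the first. Only the 30 genes with the widest gap are listed here, with 8 results. Outside them, Klrd1 gave 4.29 and -3.79 (adjusted p = 0.000129 and 0.000193) and Ccr6 gave -3.30 and 3.62 (adjusted p = 0.00169 and 0.000821). DN minus CD4 exceeded γδ minus CD8 by 0.8 for Fcer1g (adjusted p = 0.00725) and by 1.75 for Gzma (adjusted p = 0.0415), and for Izumo1r the difference was -3.2 (adjusted p = 7.78e-05). DN minus CD8 against γδ minus CD4 gave -1.55 for Gzma (adjusted p = 0.0338), 3.19 for Izumo1r (adjusted p = 8.03e-05) and 3.25 for Cd28 (adjusted p = 0.000337). It gave -1.59 for Ramp1 by its brighter probe (adjusted p = 0.000169) and -1.2 for Lef1 (adjusted p = 0.0228). All 6 genes of these 8 results lie on 1 side of the divide in the 10 arrays because they were chosen for that.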

How the results depend on the processing

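The pooled calls numbered 2406, the shared genes 1490 and the genes called in all 4 comparisons 540. Median scaling, the value table, an offset of 16, no background correction, both other detection filters and the mean of all probes kept each count within 1.5 times of these. Leaving out 1 array gave 1450 to 3350 pooled calls, 1143 to 2300 shared genes and 251 to 815 in all 4 comparisons. With the arrays fitted as 2 pool means, 1594 genes were called. With the replicate block the counts were 4689 pooled and 1160 in all 4 comparisons, although only 7 of 10 arrays correlated best with their own number. With the array series as a block they were 5097 and 1315, and replicates 2 and 3 alone gave 6050, 3746 and 1873. With replicates 2 and 3 averaged the counts were 24, 23 and 0, and with all 12 arrays as labelled 120, 17 and 0. The averaged samples leave 6 samples for 4 means, and the cause of the other shifts was not tested.

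Of the 1490 shared genes, at least 1488 kept their direction in each of the 23 alternatives, and 1042 stayed shared whichever array was left out (588 higher in unconventional, 454 higher in conventional cells). Pools without overlap were a condition for these genes and for the shared genes among those named. Alternatives that only drop or average arrays could therefore hardly reverse a direction. Among the 119 called genes named by the rule, no direction reversed, 12 stayed called with replicates 2 and 3 averaged, 11 with all 12 arrays as labelled, 105 with 2 pool means, and at least 108 under each other alternative. Signal near background limits dim genes: the median NK receptor difference was 0.31, and 2.34 on the value table. Ramp1 lost its call on the value table and without CD8 2 or CD8 3 (-0.39, -0.31 and -0.25), where its other probe was the brighter and was taken.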

Other observations

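A set of 22 genes was shared under each alternative but that with all 12 arrays as labelled, 18 higher in unconventional and 4 higher in conventional cells. It held the NK receptor genes Cd160, Klra5, Klra6, Klrb1a and Klre1 with the adaptor gene Fcer1g, the granule genes Gzmb and Gzmc, and the chemokine gene Ccl5. The rest of its unconventional side, outside these groups, was Acoxl, Apol9a, Blvrb, Capn3, Ccrl2, Gcnt1, Gpx8, Myo1e and Tmem273. Bcl11b, Satb1, Izumo1r and Trib2 were the 4 of the conventional side. None of the 18 B cell markers and none of the 14 MHC class II genes was in it, since no member of either list was called with replicates 2 and 3 averaged, a setting in which 23 of the 1490 shared genes were shared. The medians in that setting were 1.23 for B cell markers and 1.63 for MHC class II genes, against 1.31 and 1.66.

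In the other direction, 47 of the 1490 shared genes also had no overlap when the left-out libraries were set in the pools of their labels, 26 higher in unconventional and 21 higher in conventional cells. Aebp2, a Polycomb cofactor gene, kept the widest distance, 0.30 on the log2 scale with a difference of -0.64 over the 10 arrays. Cnn3, a calponin gene, followed with 0.11 and a difference of 0.78. Both were named after their values were seen.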
